A study of Homo sapiens with 6 samples.

Results

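The open regions described here are those that ranked high in every library and lay far from gene starts. The 20000 peaks with the highest −log10 p of each of 6 ATAC-seq lists were merged on chromosomes 1 to 22 of hg38, which gave 29870 regions. A region was kept when it overlapped a top peak of all 6 lists and lay more than 5000 bp from every transcription start of GENCODE release 44. Of the 29870 regions, 8485 were shared by the 6 lists, and 920 of these were kept and are called shared distal regions. They were chosen by their p-values in all libraries, so that their height and their presence in each list are descriptions and were not tested.

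SK-N-AS is a human neuroblastoma cell line, and indisulam is a sulfonamide that acts as a molecular glue, through which cells lose the splicing factor RBM39. The naïve cells were grown from SK-N-AS xenografts of vehicle-treated mice, and the cells named R1 and R2 were grown from xenografts that were resistant to indisulam and were taken at the second relapse, during a further treatment cycle. All cells were then cultured and received no treatment, and 2 libraries of 100000 cells each were made per cell type. It is not stated if both libraries of a cell type came from 1 culture, and a cell type grown from a tumor may hold the features of that tumor only. In ATAC-seq, a transposase called Tn5 inserts adapters where chromatin is open, and a peak is a stretch with more cuts than the background of its library.

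The background rate recovered from the folds, in tags per window of the peak caller, was 2.29 and 1.35 in naïve, 7.94 and 5.43 in R1, and 0.85 and 0.899 in R2. Depth therefore differed 9.34 times between the shallowest and the deepest library, and it went with the cell type, so that depth and cell type cannot be told apart. Peaks lay within 1000 bp of a start of 7 or 8 of 8 adrenergic neuroblastoma markers in each list, of 5 to 7 of 7 mesenchymal markers, and of 0 or 1 of 3 blood markers.

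Open chromatin far from gene starts is of several kinds. Enhancers bind factors such as AP-1, a dimer of JUN and FOS proteins, and act on promoters at a distance. Insulators and loop anchors are bound by CTCF, a zinc finger protein that halts cohesin. Satellite DNA near centromeres consists of short units in long arrays, and the family built on GGAAT is known as human satellite II and III. Reads from such arrays are hard to place, because the reference holds only part of them.

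The sequences at the summits showed which of these kinds the strongest members were. The bases up to 60 bp either side of the median summit are shown for the best region of chromosomes 5, 10 and 2, ranked by the lowest level that a region reached in any library, with GGAAT in capitals. They were chosen after their values were seen.
chr5:49601512-49601632 (plus strand): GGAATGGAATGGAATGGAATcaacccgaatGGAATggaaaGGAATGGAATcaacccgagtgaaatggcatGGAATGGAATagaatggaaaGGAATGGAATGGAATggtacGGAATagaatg
chr10:41859775-41859895 (plus strand): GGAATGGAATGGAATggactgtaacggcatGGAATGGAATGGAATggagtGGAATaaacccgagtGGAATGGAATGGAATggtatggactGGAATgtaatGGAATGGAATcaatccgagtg
chr2:89833264-89833384 (minus strand): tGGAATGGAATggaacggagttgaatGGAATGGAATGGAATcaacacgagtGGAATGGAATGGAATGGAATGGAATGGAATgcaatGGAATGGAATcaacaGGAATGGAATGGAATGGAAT

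In these windows, runs of GGAAT alternated with diverged copies of the unit. Within 150 bp of the summit, the region on chromosome 5 held 36 copies, that on chromosome 10 held 38 and that on chromosome 2 held 36. Tandem arrays of other units were also present. The best of them with a unit between 10 and 40 bp lay on chromosome 16, 43583 bp from the start of SOX8, and is shown with its first unit of 24 bases in capitals.
chr16:1025293-1025413 (plus strand): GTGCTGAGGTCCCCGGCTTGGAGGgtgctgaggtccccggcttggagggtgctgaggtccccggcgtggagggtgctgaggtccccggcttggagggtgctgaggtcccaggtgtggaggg

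The members that held an exact match to the CTCF consensus were of another kind. Of the best by their lowest level, 5 are shown as 61 bases on the strand of the match, with the match in capitals, to set them beside the satellites.
chr14:102524624-102524684 (plus strand): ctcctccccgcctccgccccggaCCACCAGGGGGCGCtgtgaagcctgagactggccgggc
chr11:10735947-10736007 (minus strand): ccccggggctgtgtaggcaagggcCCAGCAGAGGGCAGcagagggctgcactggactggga
chr17:77247169-77247229 (minus strand): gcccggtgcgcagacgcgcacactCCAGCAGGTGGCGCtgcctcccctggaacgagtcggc
chr7:2451550-2451610 (plus strand): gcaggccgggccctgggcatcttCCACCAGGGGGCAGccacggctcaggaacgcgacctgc
chr1:201482219-201482279 (plus strand): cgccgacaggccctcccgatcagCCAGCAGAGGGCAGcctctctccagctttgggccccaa

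The 5 CTCF matches lay at distances of -120, 85, 53, 49 and 9 bp from the summit, in this order. The first region, chr14:102523494-102525621, was intergenic, 14975 bp from the start of ANKRD9. Its centred level, defined below, was 0.44 and 0.72 in naïve, 0.36 and 0.45 in R1, and 0.61 and 0.63 in R2, so that the naïve libraries overlapped both resistant lines.

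The best members with an AP-1 match, TGANTCA, were again satellites. N is any base, so that TGAATCA and TGATTCA count as matches beside TGACTCA and TGAGTCA, and these forms were counted together. The 4 members with the highest lowest level lay in GGAAT arrays on chromosomes 16 and 4, and the best one is shown first. The 4 lines after it are from the best of the members whose sequence is single-copy (defined below) and holds no CTCF match, and they were added after the values were seen.
chr16:46394578-46394638 (plus strand): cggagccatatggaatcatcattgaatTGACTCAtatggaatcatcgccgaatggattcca
chr17:81733761-81733821 (plus strand): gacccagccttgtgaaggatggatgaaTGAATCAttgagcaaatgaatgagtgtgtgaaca
chr17:57663015-57663075 (plus strand): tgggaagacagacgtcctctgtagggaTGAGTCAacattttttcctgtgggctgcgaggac
chr15:99123810-99123870 (plus strand): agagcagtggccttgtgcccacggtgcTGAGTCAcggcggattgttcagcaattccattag
chr1:208160043-208160103 (plus strand): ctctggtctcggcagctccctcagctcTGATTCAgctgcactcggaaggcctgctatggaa

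The first of these sequences has TGACTCA between copies of a diverged GGAAT unit. The next was intergenic, 21673 bp from the start of SLC25A10, a mitochondrial carrier, and the others lay in introns of MSI2, an RNA-binding protein, of SYNM, an intermediate filament protein, and of PLXNA2, a semaphorin receptor. At the MSI2 region the best peak had 110 and 73 tags in naïve, 289 and 173 in R1, whereas R2 had 42 and 46. Set against the background rates, R1 was lowest, with centred levels of 0.64 and 0.49, compared with 1.39 and 1.38 in naïve and 1.0 and 1.06 in R2.

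The 920 members were put in 4 classes by the bases within 150 bp of their median summit, with limits set after the values were seen. GGAAT satellites had at least 10 copies of GGAAT on 1 strand. Other tandem repeats matched themselves at 60% or more of the bases when shifted by 2 to 150 bp. Other multi-copy regions had at least 50% of their 50-mers at more than 1 place of hg38. The rest are called single-copy, although they may hold dispersed repeats. The share of their 50-mers at more than 1 place had a median of 0.0% and reached 46.8%. Their best match to themselves had a median of 36.0% and reached 59.7%, so that some lay just outside the other classes. There were 138 GGAAT satellites (15.0% of members, 95% Wilson interval 12.8 to 17.5), 151 other tandem repeats (16.4%), 19 other multi-copy regions (2.07%) and 612 single-copy regions (66.5%). Strong and distal, as the rule defines them, thus took in satellite and tandem DNA beside single-copy sequence.

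GGAAT arrays were rare in the other top regions. They made up 3.24% of the 525 distal regions in 5 of the lists, between 1.72% and 2.63% of the distal regions in 2 to 4 lists and 2.0% of the 3809 in 1 list. Of the 7565 shared regions within 5000 bp of a start, 1 was a GGAAT satellite, or 0.0132%. Other tandem repeats were 8.19% of distal regions in 5 lists and 2.15% of shared regions near starts. The interval of the members' GGAAT share did not overlap any of these. The share rose to 26.0% when the top 10000 peaks were used and fell to 6.66% with the top 50000, and all intervals cover counting error only.

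The GGAAT members were in few places. Chromosome 4 held 29 of them between 49091159 and 49658071, chromosome 16 held 19 between 34062474 and 46401712, chromosome 21 held 17 and chromosome 10 held 16 between 38489031 and 41916317. In all, 14 chromosomes had at least 1. The windows had 10 to 45 copies of GGAAT with a median of 30, against 0 to 9 with a median of 0 in the other members. The smallest shift at which a window matched itself at 60% of its bases was 5 bp in 102 of the 138. Their 50-mers were mostly different from each other: the median share found at more than 1 place of hg38 was 19.8%, and 108 of the 138 were under 50%. Of the 138, 135 were intergenic. No member shared a 50-mer with mitochondrial DNA, another source of very high counts.

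Other tandem repeats had units of 2 to 141 bp with a median of 29. In 11 of them the window held at least 10 copies of TTAGGG, the unit of telomeres, and all 11 lay within 1000000 bp of a chromosome end. Of the 151, 92 were within 5000000 bp of an end, compared with 171 of the 612 single-copy members. They were on all 22 autosomes, and 73 were in introns.

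The level of a region in a library is log2 of the tags at its best peak over the background rate, minus the median of that value over the 8485 shared regions. A level of 0 is thus the middle of the shared regions. GGAAT members had median levels of 1.17 and 1.3 in naïve, 0.27 and 0.53 in R1, and 2.0 and 1.94 in R2. Their median tags were 94 and 69 in naïve, 222 and 177 in R1, and 84 and 84 in R2. Levels in R2 were above naïve and levels in R1 below, without overlap of the library medians. This order ran against the background rates, which were lowest in R2 and highest in R1, and the part of depth in it was not tested.

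Other tandem repeats kept this order, with medians of -0.07 and 0.1 in naïve, -0.41 and -0.19 in R1, and 0.74 and 0.54 in R2. Single-copy members lay below the middle of the shared regions in all 6 libraries. Their medians were -0.14 and -0.16 in naïve, -0.42 and -0.4 in R1, and -0.22 and -0.29 in R2. For these the R2 libraries were not above naïve. The rule also set a floor, because the lowest tags of a member were 24 and 17 in naïve, 84 and 58 in R1, and 12 and 13 in R2. On the scale of levels this floor was lower in R1 than in naïve and R2, and its part in the R1 values was not tested.

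**Figure D1:**
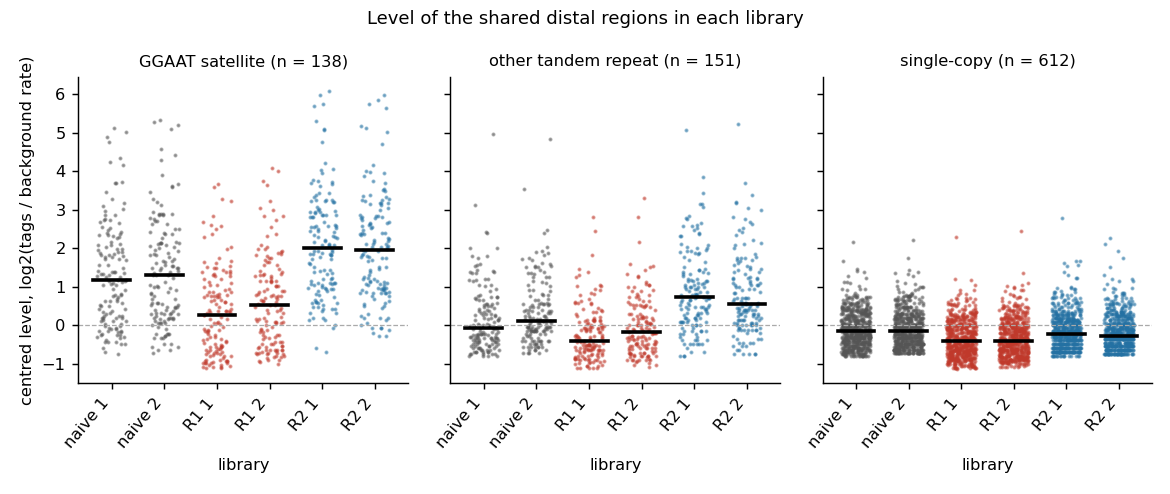
Centred level of each region (log2, y axis) in each library (x axis) for 3 sequence classes; points are regions and black bars are medians. In the left panel the 138 GGAAT members have medians of 1.17 and 1.3 in naïve, 0.27 and 0.53 in R1 and 2.0 and 1.94 in R2, whereas the medians of the 612 single-copy members stay between -0.42 and -0.14.

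The 10 members with the highest lowest level were 8 GGAAT satellites, 1 other tandem repeat and 1 other multi-copy region. Their lowest levels were 2.57 to 3.67. The best, chr5:49599307-49603110, had 1462 and 1114 tags in naïve, 2360 and 2061 in R1, whereas R2 had 1419 and 1388. The R2 tags lay within the naïve range, at a lower background rate. As levels these were 5.12 and 5.31, 3.67 and 4.07, and 6.08 and 5.98. It ranked between 2 and 3 in every list.

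A second region of this array, chr5:49656247-49661896, had levels of 5.02 and 5.28 in naïve, 3.59 and 4.01 in R1, and 5.98 and 5.85 in R2. On chromosome 10, the region from 41856913 to 41866318 had levels of 4.89 and 5.2 in naïve, 3.28 and 3.75 in R1, whereas R2 had 5.73 and 5.73. The tandem repeat chr3:93470260-93470838 had 1316 and 799 tags in naïve, 1289 and 1215 in R1, and 706 and 822 in R2. All 10 had both R1 levels below and both R2 levels above the naïve ones. For each line alone this was common. Both R1 levels lay below naïve in 574 of the 920 members and in 3162 of the 8485 shared regions. Both R2 levels lay above naïve in 329 of the members and in 1840 of the shared regions. None of the 10 held a CTCF or AP-1 match, and none was single-copy.

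Among the 50 strongest members, 36 were GGAAT satellites, 9 were other tandem repeats and 2 were single-copy. Among the 200 strongest, 71 were single-copy. Members took 57, 53, 34, 43, 59 and 60 of the first 100 places of the lists, in the order naïve, R1, R2, and 154, 159, 87, 112, 208 and 204 of the first 1000.

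The strongest single-copy member was chr22:12691639-12694144, an intergenic region 2834449 bp from the start of the nearest protein-coding gene. It had 186 and 130 tags in naïve, 905 and 663 in R1, and 64 and 84 in R2. Its levels of 2.15 and 2.22 in naïve, 2.29 and 2.43 in R1, and 1.61 and 1.93 in R2 put R1 highest, which is opposite to the satellites. Of 10 single-copy members ranked this way after the values were seen, 1 held a CTCF match. It was chr1:182029256-182030377, with levels of 0.78 and 0.51 in naïve, 1.04 and 0.9 in R1, and 0.97 and 0.93 in R2. Its nearest protein-coding gene was ZNF648, at 31899 bp. The region chr1:181104378-181106060 lay 16642 bp from the start of IER5, an immediate early response gene, and had levels of 0.93 and 0.95 in naïve, 1.17 and 0.98 in R1, and 0.97 and 0.86 in R2. There the naïve and R2 libraries overlapped, and both R1 libraries lay above them.

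A CTCF match within 150 bp of the median summit, allowing 1 mismatch to a consensus of 14 letters on both strands, was in 14.7% of the 920 members (interval 12.5 to 17.1). None of the 138 GGAAT members held one, which allows a share of up to 2.71%, and 0.662% of other tandem repeats did. In single-copy members the share was 21.9% (18.8 to 25.3). In the windows 1000 bp to either side of the same members it was 1.55%. In single-copy members the matches were close to the summits, and 90 of the 194 within 1000 bp of the summit were within 50 bp of it, and the 50 bp bin just after the summit held 65 against a median of 1 in bins beyond 200 bp. The matches lay more often on the side of higher coordinates, where the first 2 bins held 65 and 33, than on the other side, where they held 22 and 3. The median distance from each library's own summit to the match was 32 to 44 bp.

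**Figure D2:**
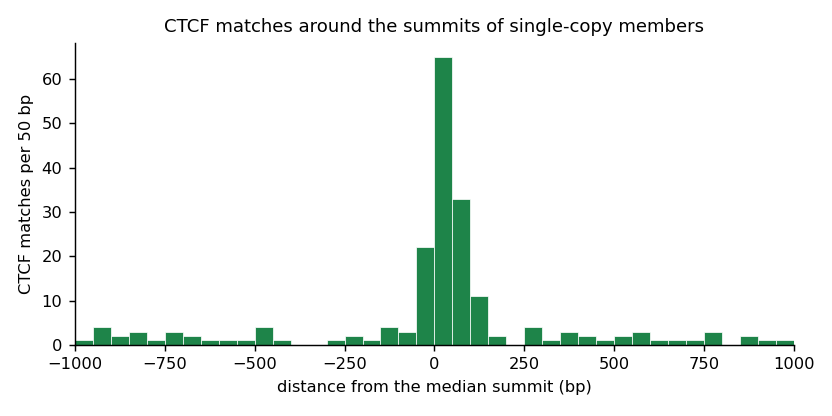
Number of CTCF matches per 50 bp (y axis) against the distance from the median summit in bp (x axis) over the 612 single-copy members. The highest bin holds 65 matches and lies next to the summit, and bins beyond 200 bp have a median of 1.

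The CTCF share of single-copy distal regions was higher where more lists held them. It was 10.9% for regions in 1 list, 13.5% in 2, 17.6% in 3, 21.4% in 4 and 27.2% in 5. It was 21.9% in the members, whose interval overlapped those for 4 and 5 lists. Among single-copy shared regions near starts it was 8.32%. With no mismatch allowed, 3.59% of all members had a match, and with 2 mismatches 29.9%. With the top 10000 peaks the share over all members was 9.04%.

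AP-1 matches were in 15.9% of members (13.7 to 18.4), and in 22.2% of the single-copy ones (19.1 to 25.7). The windows 1000 bp away had 7.19%, and single-copy shared regions near starts had 5.29%. Unlike the CTCF share, the AP-1 share did not rise with the number of lists: it was 25.6% in 1 list, 23.0% in 2, 25.1% in 3, 26.5% in 4 and 18.5% in 5. Among GGAAT members it was 6.52%. In windows of 50 bp either side of the summit, the share over all members was 8.48% for AP-1 and 8.59% for CTCF.

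**Figure D3:**
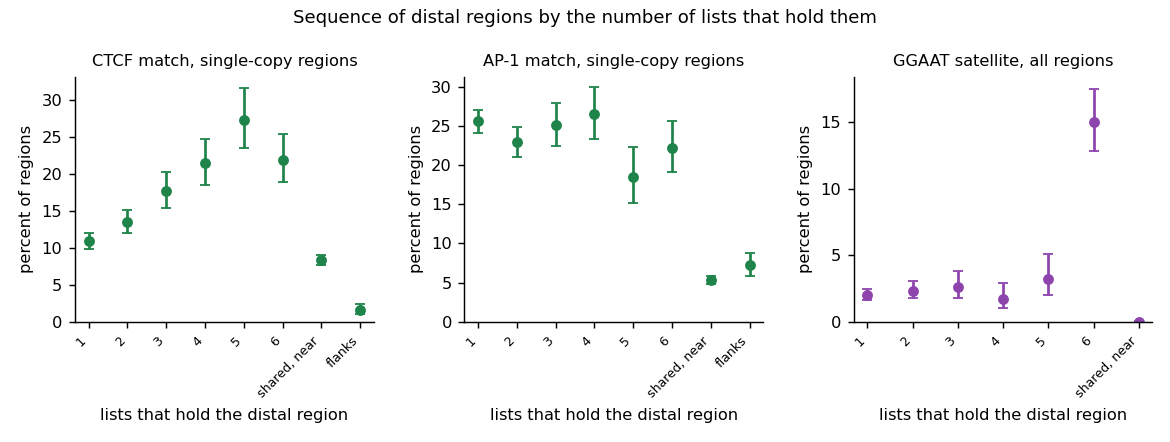
Percent of regions (y axis) with a CTCF match, an AP-1 match or a GGAAT array, by the number of lists that hold the distal region (x axis; 6 are the members), with shared regions near starts and, for the motifs, windows 1000 bp from the members; bars are 95% Wilson intervals. CTCF goes from 10.9% to 27.2% and then 21.9%, AP-1 stays between 18.5% and 26.5%, and GGAAT is 15.0% in the members and at most 3.24% in the other distal regions.

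Several other motifs differed in share between members and regions near starts. GGGCGG, the box of SP factors, was in 43.8% of single-copy members, in 31.6% of single-copy distal regions in 5 lists, in 77.9% of those shared near starts and in 12.9% of the windows 1000 bp away. CCGGAA, the core of ETS sites, was in 10.6%, 9.37%, 27.2% and 4.49%, in the same order. The E-boxes CAGCTG and CATCTG were in 33.0% and 27.9% of single-copy members, more than the 19.3% and 10.2% near starts. Single-copy distal regions in 5 lists had 32.9% and 33.8%, so that this was not particular to the members. AGATAA, bound by GATA factors, was in 5.88% of single-copy members, below the 10.8% of the neighbouring windows. GGAATG, the TEAD site, was in 14.1% of single-copy members and 13.2% of the neighbouring windows. Over all members it was in 23.9%, because it was in 90.6% of the GGAAT members, whose repeat spells it. CCAAT (NFY) was in 23.0% of single-copy members and 39.8% of single-copy shared regions near starts. TGTGGTT (RUNX) was in 4.74% and 2.35%, ATGGCGG (YY1) in 3.1% and 9.02%, GCGCATG (NRF1) in 2.45% and 7.75%, and TGACGTCA (CREB) in 1.63% and 3.09%, in the same order. A ZNF143 match was in 0.49% and 4.11%. The intervals overlapped for CREB, for REST, at 2.12% and 1.32%, and for NFI, at 0.0% and 0.0271%. The neighbouring windows held CCAAT in 24.5% and TGTGGTT in 5.07%, close to the shares of single-copy members. A match is a description of letters and not a bound site, and some motifs can overlap each other.

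Members were of varied width. The merged regions had a median of 1568 bp, and 167 were over 5000 bp. The best peak of a member had a median width of 722 and 596 bp in naïve, 1373 and 1228 bp in R1, and 487 and 505 bp in R2, in the order of the background rates. For example, chr17:79365413-79407190, in an intron of RBFOX3 (a neuronal splicing factor), was 41778 bp wide. Its best peak was 5386 and 1027 bp in naïve, 38324 and 4480 bp in R1, and 624 and 499 bp in R2, so that 1 R1 list set the width.

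The 6 summits of a member spanned a median of 86 bp, and in 525 members (57.1%) they lay within 100 bp. In single-copy members over 5000 bp wide, the median span was 3063 bp, so that the window at the median summit does not stand for the whole region. In single-copy members with a CTCF match it was 72 bp. The CTCF share was 27.0% in the 163 single-copy members up to 1000 bp wide and 12.4% in the 137 over 5000 bp, and the AP-1 share was 31.9% and 18.2%. The median GC content was 62.1% in single-copy members and 40.7% in GGAAT members.

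By the median summit, 536 members were intergenic, 357 intronic and 27 exonic. Single-copy members were intronic in 45.4%. Those with an AP-1 match were in introns in 52.2% (43.9 to 60.4) and those with a CTCF match in 32.8% (25.5 to 41.2). The median distance to a start was 14667 bp over all members, and 299 lay within 10000 bp. In GGAAT members the median was 75722 bp.

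Chromosome 1 held 127 members, chromosome 17 held 114, chromosome 7 held 79, and chromosome 13 held 4. Chromosome 17 had 12.4% of the members and 9.33% of all shared regions. On chromosome 21, 32 of 115 shared regions (27.8%) were members, 17 of them GGAAT satellites. On chromosome 3, 3.64% were. Of the single-copy members over 5000 bp wide, 33 were on chromosome 17 and 22 on chromosome 7.

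Joined across gaps of up to 12.5 kb, the members formed 731 clusters, 629 of them of 1 region. The largest had 20 GGAAT members on chromosome 4 from 49091159 to 49156598, and the next had 12 on chromosome 10 from 41856913 to 41916317. Median levels of the first were 1.64 and 1.64 in naïve, 0.47 and 0.86 in R1, and 2.57 and 2.29 in R2, and those of the next were 1.87 and 1.91, 0.69 and 1.13, and 2.85 and 2.7. The 612 single-copy members formed 555 clusters, and the largest had 4 regions, in MAD1L1, on chromosome 7 from 1891560 to 1929964. UNCX, a homeobox factor, was the nearest protein-coding gene of 7 single-copy members.

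Some members had their nearest protein-coding start at a gene of the neuroblastoma lists. The share over all genes was not computed, so that the counts below cannot be called low or high. Of 12 adrenergic factors 1 was nearest to a member, of 12 mesenchymal factors 2, of 12 AP-1 genes 1 and of 24 matrix and adhesion genes 3. No member had its nearest start at one of the 13 YAP and TEAD genes, the 6 MYC family genes, the 7 globin and imprinted genes, the 53 protocadherins or the 39 HOX genes. The lists were chosen with earlier results of these data known.

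The member nearest to TBX2, a T-box factor, was 254438 bp from its start, in an intron of BCAS3, with levels between -0.76 and -0.22. The one nearest to JUND, an AP-1 subunit, was chr19:18291025-18296406, and its levels were -0.14 and -0.49 in naïve, -0.95 and -0.79 in R1, whereas R2 had -0.39 and -0.46. The R1 libraries were lowest there. TWIST2 and MEOX1, factors of mesenchyme, had 1 member each, at 61023 and 32651 bp from the start. Among matrix genes, the member 8433 bp from the start of TGFBI held an AP-1 match and had levels between -0.72 and -0.21, and those nearest to the collagen genes COL5A1 and COL6A3 lay at 65289 and 122806 bp.

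The resistant lines came from relapsed tumors, and the comparison with naïve asks whether these shared regions differ in height between them. Over all members, the median difference of the 4 resistant libraries from the naïve ones was -0.11. This mean hides opposite directions, because the median of R1 minus naïve was -0.34 and that of R2 minus naïve was 0.08. It was -0.01 without the first R1 library, -0.05 without the other R1 library, and -0.2 and -0.19 without either R2 library. With 2 libraries against 4, an exact permutation test could not give a two-sided p under 0.133, and with 2 against 2 not under 0.333, so no test was run.

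A member was called when its groups did not overlap and the mean difference was at least 1 on the log2 scale. In the 4 resistant libraries 2 members were called higher, and the share of all shared regions called was 0.165%. Another 9 were called lower, with a background of 0.295%. Centred on the members, 4 were higher and 5 lower, so that the excess of lower calls depended on the centring. The 2 became 5 without the second naïve library or without the first R1 library, and 0 without either R2 library. The 9 became 18 and 16 without the first and the second R2 library. Both of the higher ones were tandem repeats, and of the 9 lower ones 8 were single-copy, 4 held an AP-1 match and 1 a CTCF match.

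For each resistant line alone, 94 members (10.2%) were lower in R1 than in naïve, against 1.92% of all shared regions. Of these, 50 were GGAAT satellites, 32 were single-copy and 25 held an AP-1 match. None was higher in R1, where the background was 0.46%. In R2, 49 members (5.33%) were higher, against 1.1%, and 29 of them were other tandem repeats, 18 were GGAAT satellites and 2 were single-copy. In R2, 4 members were lower, against 0.118%, and all 4 were single-copy. R1 was below R2 in 200 members (21.7%), against 3.44%, and 125 of these were GGAAT satellites, whereas none was above, with a background of 0.0118%. The comparisons with naïve share the naïve libraries.

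**Figure D4:**
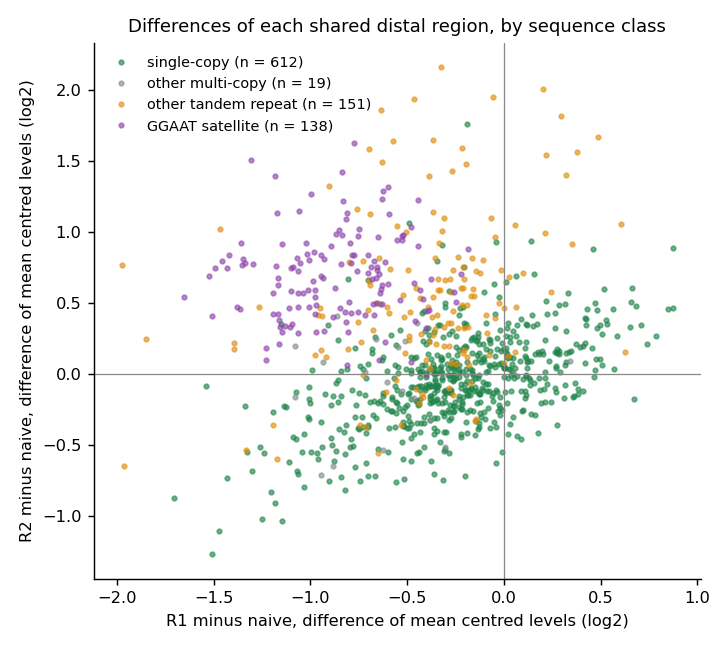
Difference of mean centred levels (log2) from the naïve libraries in R1 (x axis) and R2 (y axis), with 1 point per member, coloured by sequence class; both axes share the naïve libraries. The 138 GGAAT members lie at the upper left, with medians of -0.85 for R1 and 0.68 for R2, and the 612 single-copy members surround medians of -0.25 and -0.06.

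By class, GGAAT members had a median of -0.85 in R1 minus naïve, with 0 of 138 above, and of 0.68 in R2 minus naïve, with 137 of 138 above. Between libraries of the same cells the median absolute difference was 0.17 in naïve, 0.29 in R1 and 0.15 in R2 for these members. The order was the same on both sides of a limit of 50% repeated 50-mers. The 108 members under it had medians of 1.15 and 1.26 in naïve, 0.29 and 0.54 in R1, and 1.92 and 1.94 in R2, and the other 30 had 1.27 and 1.4, 0.11 and 0.42, and 2.08 and 1.91. Single-copy members had medians of -0.25 in R1 and -0.06 in R2, where 158 and 266 of 612 were above naïve. For single-copy members the median absolute difference between libraries of the same cells was 0.2 in naïve, 0.12 in R1 and 0.23 in R2. When levels were centred on the members themselves, the GGAAT median in R1 was -0.56 and the single-copy medians were 0.04 in R1 and -0.12 in R2. Single-copy regions are 612 of the 920 members, so that this centring is set largely by themselves and cannot show their direction. Centred on shared regions that hold a start, the single-copy median in R1 was -0.28. The lower R1 level of single-copy members is thus one relative to the shared regions.

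Members with an AP-1 match and no CTCF match were compared with those with a CTCF match and no AP-1 match within each library. The difference of their medians needs no centring. The AP-1 median minus the CTCF median was 0.26 and 0.17 in naïve, -0.22 and -0.16 in R1, and 0.16 and 0.15 in R2. AP-1 members were thus above CTCF members in naïve and R2 and below them in R1. Among single-copy members alone (126 and 124 regions) the differences were 0.19 and 0.15, -0.22 and -0.16, and 0.16 and 0.15. Single-copy shared regions near starts had 0.21 and 0.16, -0.25 and -0.22, and 0.07 and 0.07, so that this was not particular to distal regions. By centred levels, 82.5% of the single-copy AP-1 members were lower in R1 than in naïve, and 62.9% of the CTCF ones. Of the 352 single-copy members with neither match 75.6% were, between the AP-1 and the CTCF share. In R2 the shares were 55.6%, 56.5% and 57.1%, in the same order. These shares, unlike the differences of medians above, depend on the centring. The AP-1 minus CTCF difference, as a mean over the resistant libraries minus naïve, was -0.23. It was -0.15 without chromosomes 6, 13, 14, 19, 20 and 22. The R1 libraries were also the deepest, and the part of depth was not tested.

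The largest differences among members whose groups did not overlap were at these regions. In an intron of ADPRHL1, chr13:113435791-113436388 had levels of -0.39 and 0.0 in naïve, 0.1 and 0.48 in R1, and 1.34 and 1.61 in R2, a mean difference of 1.08. The region chr18:80262209-80263266, 15339 bp from the start of PARD6G (a cell polarity protein), had -0.22 and -0.16, 0.13 and 0.07, and 1.87 and 1.37, a difference of 1.06. Both were tandem repeats, and R2 was far above R1 in both. The tandem repeats chr13:112014710-112015228, near SOX1, and chr20:63480720-63489628, near EEF1A2, differed by 0.97 and 0.83.

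The only single-copy region among these 5 was chr7:5631825-5635273, in an intron of RNF216, a ubiquitin ligase. Its levels were -0.44 and -0.64 in naïve, 0.23 and 0.44 in R1, and 0.25 and 0.45 in R2, so that R1 and R2 overlapped there. The mean difference was 0.88. It held no CTCF or AP-1 match.

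Of the 5 with the largest fall, 4 are described. The first was the single-copy region chr7:1896972-1903560, in an intron of MAD1L1 (a spindle checkpoint gene), with 64 and 42 tags in naïve, 97 and 66 in R1, and 13 and 14 in R2. Its levels were 0.61 and 0.58 in naïve, -0.93 and -0.9 in R1, and -0.69 and -0.65 in R2, a difference of -1.39. It held an AP-1 match, but its summits spanned 3831 bp. Its R2 tags were next to the lowest of any member, 12 and 13, below which the rule keeps no region.

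The region chr1:201274069-201276581, 8039 bp from the start of PKP1, a desmosome protein, had 0.65 and 0.72, -1.06 and -0.99, and 0.0 and -0.37, a difference of -1.29. It held an AP-1 match. Its R1 tags of 89 and 62 were near the lowest of any member, 84 and 58, below which the rule keeps no region. Near AACS, chr12:125048756-125050244 had 1.22 and 1.36 in naïve, 0.2 and -0.11 in R1, and 0.31 and 0.24 in R2, a difference of -1.13. At these 3 single-copy regions, both resistant lines were below naïve. In a tandem repeat in an intron of ARHGEF18, chr19:7450221-7451225, the levels were 1.16 and 1.03, -0.84 and -0.9, and 0.31 and 0.58.

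**Figure D5:**
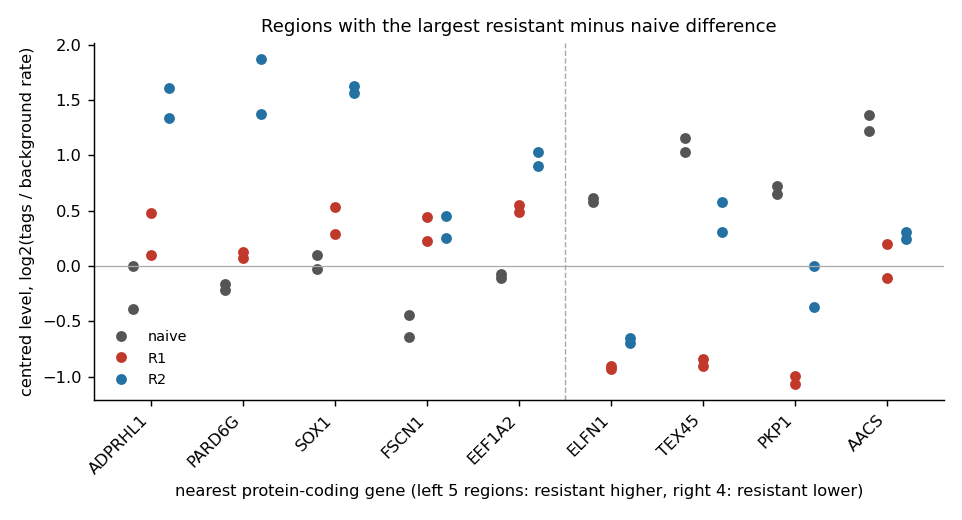
Centred level (log2, y axis) in each library at the 5 members with the largest and 4 of the 5 with the smallest resistant minus naïve difference, named by the nearest protein-coding gene (x axis); each point is a library. At ADPRHL1 and PARD6G the R2 points are at 1.34 or more, whereas at the MAD1L1 intron (labelled ELFN1, the nearest start) R1 and R2 are all between -0.93 and -0.65.

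Among the single-copy members, the median R1 minus naïve difference varied by chromosome, from -0.6 on chromosome 19 with 26 regions to 0.38 on chromosome 13 with 2. R2 minus naïve was -0.35 and 0.41 on the same chromosomes. Copies of a chromosome and openness cannot be told apart in these lists.

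The rule's limits cut through regions of like values. The 5 members with the worst ranks had ranks of 19932 to 19969. Of the 525 distal regions in 5 lists, 493 had a lower peak in the sixth list, and 230 of these ranked up to 25000, the best at 20002. The list that lacked a top peak was the second naïve in 138, an R2 library in 128 and 109, the first naïve in 73, and an R1 library in 45 and 32. At the distance limit, the nearest 5 members lay 5006 to 5064 bp from a start, and the nearest 5 shared regions on the other side at 4945 to 5000 bp.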

How the data were processed

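ATAC-seq peaks of 6 libraries were analysed, 2 each of naïve, R1 and R2 cells. The methods and the submitters' notes name BWA 0.7.12-r1039, Picard 1.65, SAMtools 1.3.1 and MACS2 2.2.7.1. Duplicates, mitochondrial reads and reads of the lowest mapping quality, which BWA gives to reads placed equally well at several sites, were left out, and each library has its own peak list. The methods name hg19, whereas the coordinates fit hg38, which was used with GENCODE release 44. The deposited fold is a ratio of tags to background, while the deposited −log10 p-value and q-value come from the authors' peak caller. Each fold is tags plus 1 over rate plus 1. The rate was taken from the step of the folds, and all tags came out within 0.0016 of whole numbers. The lists give no read totals, so that only relative depth is known.

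Peaks were ranked by −log10 p over the whole list, ties by file order. Levels came from the best overlapping peak. Motif matches on either strand were counted up to 150 bp from the median summit. The 50-mers were counted over hg38 without alternate and patch sequences, and repeat masking was not used. Named regions were the 10 with the highest lowest level, the 5 largest and 5 smallest differences without overlap, those nearest to listed genes, and the best CTCF and AP-1 matches. Other regions were chosen after their values were seen. Some regions and sequences that these rules pick are not reported here. The members and lists were chosen with earlier results of these data known. No test was run. Functions were tested on simulated data. Alternatives were other ranks, distances, windows, centrings and left-out libraries. Python 3.11.15, NumPy 2.4.6, pandas 2.3.3, SciPy 1.17.1 and numba 0.67.0 were used.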

Additional observations from a re-analysis of the deposited data

Results flagged for a closer look

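R1 and R2 lay on opposite sides of the naïve libraries, with every library on its side, for the values below. Each is the R2 mean level minus the R1 mean level on the log2 scale, and the difference was not tested. For the median over all members it was 0.35, for GGAAT satellites 1.57 and for other tandem repeats 0.94, with R2 above naïve and R1 below. Among the strongest regions it was 2.16, 2.12 and 2.18 for those on chromosome 5 from 49599307, 49656247 and 49666073. It was 2.22, 2.24, 2.25 and 1.27 for those on chromosome 10 from 41856913, 41878312, 41874630 and 133689253. It was 2.09 on chromosome 3 from 93470260, 2.26 on chromosome 2 from 89827483 and 1.27 on chromosome 16 from 46388375. Among single-copy members it was 1.23 near SIRPA on chromosome 20 from 1874241. The region on chromosome 22 from 12691639 went the other way, at -0.59. Background rates were 7.94 and 5.43 in R1 and 0.85 and 0.899 in R2, and their part was not tested.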

How the results depend on the processing

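The number of members was 365 with the top 10000 peaks, 2822 with the top 50000 and 1810 with protein-coding starts only. The GGAAT share was 26.0%, 6.66% and 7.68% in these, and 10.1% and 21.7% with distances of 1000 and 10000 bp. The CTCF share was 9.04% with the top 10000 peaks, 3.59% with no mismatch, 29.9% with 2, 8.59% within 50 bp, 17.5% where the summits lay within 100 bp and 21.9% in single-copy members. The AP-1 share was 12.3% with the top 10000 peaks, 8.48% within 50 bp, 20.1% within 250 bp and 22.2% in single-copy members. Centred on the members, the resistant minus naïve median was 0.0, 4 members were higher and 5 lower, and the GGAAT median in R1 was -0.56. The single-copy medians were then -0.12 in R2 and 0.04 in R1, where the sign reversed. Most members are single-copy, so that this centring cannot show their direction. Centred on shared regions that hold a start, the single-copy median in R1 was -0.28. Without chromosomes 6, 13, 14, 19, 20 and 22, 1 member was higher and the AP-1 minus CTCF change was -0.15. In single-copy members alone the median was -0.15, 0 were higher and the AP-1 minus CTCF change was -0.19. The single-copy, GGAAT and per-line alternatives were chosen after seeing the data, and causes were not tested.

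Leaving out each library in turn gave 968 to 1059 members, CTCF shares of 13.9% to 17.2%, AP-1 shares of 15.4% to 18.3% and GGAAT shares of 13.4% to 15.1%. The resistant minus naïve median was -0.2 to -0.01, with 0 to 5 higher and 6 to 18 lower, and the AP-1 minus CTCF change was -0.29 to -0.16. GGAAT medians were -0.99 to -0.73 in R1 and 0.63 to 0.73 in R2, and single-copy medians -0.25 to -0.24 and -0.06 to -0.04. Of 152 recomputed main values, 103 moved by less than the limit set, 48 moved by more and 1 reversed. Some of the 103 could not move, so that this count overstates how stable the values were. With 1 background rate per list, ranking by fold gives the same order as ranking by −log10 p. An R2 median does not use the R1 libraries, nor an R1 median the R2 ones. The AP-1 minus CTCF difference needs no centring. The limit was the interval for shares, the spread between libraries for differences, and a fixed ratio to the main value for counts. Of 96 for the named regions, 70 moved by less, 26 by more and 0 reversed. No paired analysis was possible because the values reported come from no test and the labels give replicate numbers only.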
